A study of Mus musculus with 24 samples.

Results

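The BMP ligand genes Bmp2, Bmp3, Bmp4, Bmp5, Bmp6, Bmp7, Bmp8a and Bmp8b were followed in RNA sequencing of mouse carotid arteries. They were chosen by symbol and are 8 of the 55421 genes in the count tables. All 8 passed the filter on low counts, Bmp8a mainly through the E2 and E4 libraries, where it was high. The family was proposed with the result of Bmp8a in E4-treated as compared with vehicle-treated mice already known. For that comparison the values of every ligand are therefore given as a description without a test, and Bmp8a is tested only where neither of those groups enters. Tests of the other ligands that use the vehicle or E4 groups share libraries with that result and are not fully independent of the choice.

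Bone morphogenetic proteins (BMPs) are secreted dimers of the TGF-β superfamily that bind pairs of type I and type II serine/threonine kinase receptors. The receptors phosphorylate SMAD1, SMAD5 and SMAD9, which act with SMAD4 on targets such as the Id genes. Extracellular antagonists such as noggin and chordin hold the ligands away from their receptors. In arteries the pathway is known for its part in endothelial quiescence, smooth muscle phenotype and vascular calcification.

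Carotid arteries without injury came from C57BL/6 mice given as 9 weeks old. The study's methods describe ovariectomized females, so that all groups lacked ovarian estrogens. The titles gave 4 groups of 6 libraries: OVX (vehicle), E2 (estradiol), E4 (estetrol, a fetal estrogen that differs from estradiol by additional hydroxyl groups) and TAM (tamoxifen, a selective estrogen receptor modulator). The E4 libraries carried the entry "Placebo" in the treatment field and were grouped by their titles. The labels gave 3 weeks of treatment for E2 and TAM, and the study's methods describe a shorter one. E2 and E4 pellets held unequal doses, chosen by the study for similar estrogenic action, and the dose of TAM was not given in the sources used here. Each library had its own number, and no source used here says whether a library came from 1 mouse, so p-values measure the spread between these libraries. The study's figure legend for its sequencing gives a smaller n per group than the 6 libraries used here.

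Total counts ranged from 24647246 to 64221401 per library, with a median of 45156107. Markers of smooth muscle, endothelium and fibroblasts were detected in every group, as were those of nerve and fat around the vessel. Libraries OVX C5 and TAM C35 stood apart with summed sympathetic ganglion markers of 33.7 and 183 CPM (counts scaled to a common library total by the TMM method), against group medians of 3925 and 5184. Library E4 C38 held 3026 CPM of thyroid and parathyroid markers, against a group median of 33.8, and had the lowest total count. Library E2 C9 held 304 CPM of T cell markers, against a median of 7.21. The 6 macrophage markers summed to 428 to 559 CPM in E2, above all other libraries (OVX 218 to 395, TAM 212 to 275, E4 169 to 321). In bulk tissue, a change in the number of cells of a type and a change in RNA per cell cannot be told apart.

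Bmp8b and Bmp8a were the ligands that set the groups apart. Bmp8b was higher in E2-treated than in vehicle-treated mice, by 3.25 on the log2 scale, and was intermediate in E4-treated mice. The TAM and vehicle groups overlapped in Bmp8b. Bmp8a was near the detection limit in vehicle-treated mice and took the same order of groups, with TAM above OVX on average. Among the other 6 ligands, the fitted log2 change furthest from 0 in the 6 comparisons was -0.63 (Bmp4, E4 as compared with OVX).

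**Figure D1:**
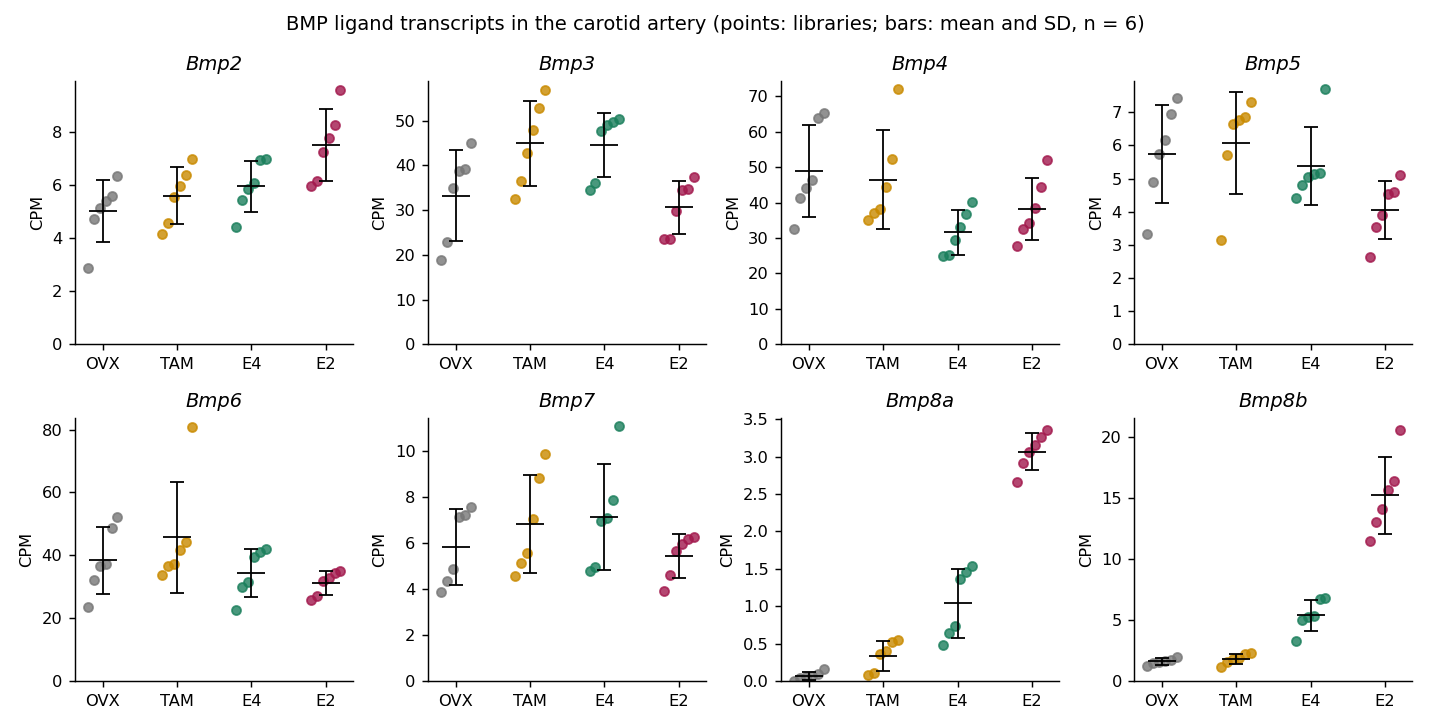
CPM of the 8 BMP ligand genes (linear axes from 0) in the OVX, TAM, E4 and E2 groups, where each point is a library and bars give the mean and SD of 6 libraries. The Bmp8b panel runs from 1.19 to 1.95 CPM in OVX up to 11.5 to 20.6 CPM in E2, and the panels of Bmp2 to Bmp7 show overlapping groups.

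Bmp8b (ENSMUSG00000002384) lies on the forward strand of chromosome 4 (GRCm38, chr4:123105165-123132099), and Bmp8a (ENSMUSG00000032726) on the reverse strand of the same chromosome (chr4:123312645-123343252). Both are protein-coding, with 10 and 7 exon blocks. They are known for roles in germ cells, and Bmp8b also for thermogenesis in brown fat. Their coding sequences were 88.0% identical over 1197 aligned bases, whereas every other pair of the family was between 47.3% and 68.8% identical. The longest stretch that both coding sequences share measured 182 bases. It is shown because a read wholly within it does not tell Bmp8a from Bmp8b by its own letters. Whether its mate placed it was not examined. It runs from coding base 451 to 632 in both and crosses an exon junction (Bmp8a chr4:123324593-123324709 and chr4:123325099-123325163, Bmp8b chr4:123114693-123114757 and chr4:123115146-123115262):
Bmp8a and Bmp8b: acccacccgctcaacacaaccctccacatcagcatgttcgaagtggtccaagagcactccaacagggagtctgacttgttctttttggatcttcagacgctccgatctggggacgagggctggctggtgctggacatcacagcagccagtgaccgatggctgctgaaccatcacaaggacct
Of all 150-base windows of the annotated transcripts, 1.37% of those of Bmp8a occurred in Bmp8b and 0.885% of those of Bmp8b occurred in Bmp8a.

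The promoters of this pair were examined because both genes moved together. The 250 bases upstream of each RefSeq start (GRCm38.p6) are given with the estrogen response element arm GGTCA and the GC box GGGCGG, on either strand, in capitals (Bmp8a chr4:123343253-123343502, reverse strand, and Bmp8b chr4:123104911-123105160, forward strand):
Bmp8a: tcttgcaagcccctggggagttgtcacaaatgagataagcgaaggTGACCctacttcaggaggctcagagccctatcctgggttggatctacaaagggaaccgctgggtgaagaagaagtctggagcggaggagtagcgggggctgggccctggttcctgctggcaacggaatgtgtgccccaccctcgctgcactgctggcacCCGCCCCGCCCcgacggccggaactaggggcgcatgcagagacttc
Bmp8b: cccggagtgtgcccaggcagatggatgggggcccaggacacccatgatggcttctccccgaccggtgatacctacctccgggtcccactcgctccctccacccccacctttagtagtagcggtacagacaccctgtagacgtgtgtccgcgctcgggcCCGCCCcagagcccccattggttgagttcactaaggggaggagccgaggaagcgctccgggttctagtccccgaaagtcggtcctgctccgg
The Bmp8a window held 1 arm, its first base 205 bases before the start, and 2 GC boxes that share a base. The Bmp8b window held no arm and 1 GC box. Of 32817 promoters of this length, 35.2% held an arm and 32.7% a GC box. The full element GGTCANNNTGACC was in 0.064% of all promoters and in neither window, and the AP-1 motif TGANTCA, in 6.75% of all promoters, was in neither. The windows of Bmp4 and Bmp6 held 1 GC box each, that of Bmp6 also 2 arms, and that of Bmp5 held none of these motifs. These matches describe letters in a window and say nothing of binding.

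Other annotated genes lie within the Bmp8 genes. Oxct2b sits in an intron of Bmp8b and Oxct2a in an intron of Bmp8a, with 0 exon bases shared. Gm17244 and Ppie, on the opposite strand, share 339 and 133 exon bases with Bmp8b. Genes whose exons overlap only on opposite strands carried decimal counts in 97.3% of 6370 cases, against 6.68% of 15494 genes without exon overlap. Reads had thus been split between overlapping genes without use of strand, and those of Bmp8b, Gm17244 and Ppie in shared bases cannot be told apart.

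**Figure D2:**
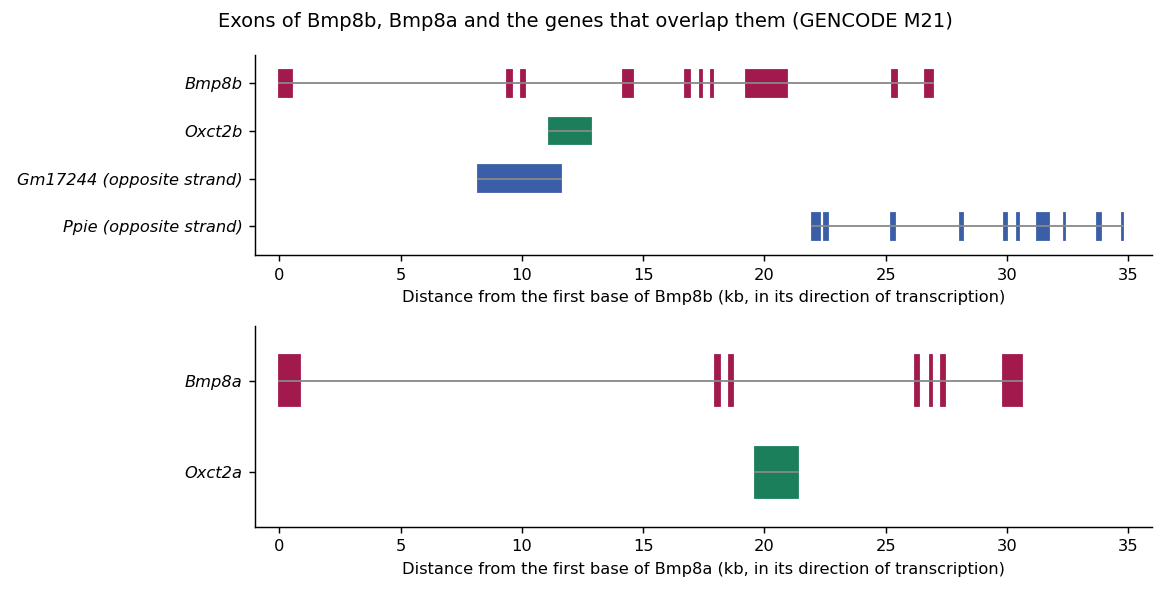
Exon blocks (boxes) of Bmp8b and Bmp8a and of the genes that overlap them, by distance in kb from the first base of each Bmp8 gene in its direction of transcription. Oxct2b and Oxct2a fall between exons, and Gm17244 (339 shared exon bases) and Ppie (133) overlap exons of Bmp8b from the opposite strand.

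In vehicle-treated mice, Bmp8b measured 1.19, 1.62 and 1.95 CPM (lowest, median and highest of 6 libraries). With TAM it measured 1.10, 1.84 and 2.25 CPM, with E4 3.24, 5.27 and 6.78 CPM, and with E2 11.5, 14.9 and 20.6 CPM. OVX and TAM overlapped, and the E4 and E2 groups each lay apart from all others. The means were 1.59 ± 0.261 CPM in OVX, 1.81 ± 0.431 in TAM, 5.37 ± 1.30 in E4 and 15.2 ± 3.19 in E2 (SD, n = 6 each).

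As compared with OVX, Bmp8b was 9.54-fold higher with E2 (log2 fold change 3.25, SE 0.19, adjusted p = 1.62e-10, quasi-likelihood F test of edgeR). It was the only ligand among the 7 tested to pass an adjusted p under 0.05 with an absolute log2 fold change over 1, thresholds met by 1.27% of all 25033 genes (0.923% with higher expression in E2). The OVX libraries also gave the result known when the family was proposed, so this count is not independent support. The fitted change of Bmp8b with E4 as compared with OVX was 1.76 (SE 0.18), as a description. With TAM it was 0.18 (SE 0.18, 95% interval -0.20 to 0.57, adjusted p = 0.604).

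Between treatments, Bmp8b was 2.82-fold lower with E4 than with E2 (log2 fold change -1.498, SE 0.18, adjusted p = 2.47e-05), the 1 ligand of 7 called where 2.47% of all genes were (2.25% with lower expression in E4). It was 8.40-fold lower with TAM than with E2 (-3.07, SE 0.19, adjusted p = 4.59e-10) and 2.98-fold lower with TAM than with E4 (-1.57, SE 0.18, adjusted p = 9.19e-05). Across all genes, 1.65% were called in TAM as compared with E2 and 0.196% in TAM as compared with E4 (0.120% with lower expression in TAM). Within the lower- and the higher-numbered libraries alone, TAM as compared with E4 gave -1.73 (adjusted p = 0.138) and -1.42 (adjusted p = 0.173), without a call. In the 3 E4 and 3 E2 libraries with the higher numbers, the difference of Bmp8b was -1.58 with an adjusted p of 0.225. With macrophage markers as a covariate, chosen after seeing the data, Bmp8b was 3.16 higher in E2 than in OVX (adjusted p = 2.2e-05), while E4 as compared with E2 gave -1.39 (adjusted p = 0.156). The macrophage sums of all E2 libraries lay above those of all other libraries, so the fit separates this covariate poorly from E2 treatment.

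For Bmp8a, the 6 OVX libraries held 0 to 6 counts each, 19 in all, where 3 counts were taken as the floor of detection. In CPM the lowest, median and highest values were 0, 0.0580 and 0.153 in OVX, 0.0787, 0.378 and 0.553 in TAM, 0.486, 1.05 and 1.54 in E4, and 2.66, 3.11 and 3.35 in E2. The E2 libraries formed a narrow group above all others, and every E4 library lay above every OVX library. The TAM group overlapped both OVX and E4.

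The mean of Bmp8a in E2 was 46.1 times that in OVX. The pooled CPM of E2 divided by the exact Poisson bounds of the 19 OVX counts gave 31.5 and 81.8. These bounds cover counting error in OVX only and belong to pooled CPM, not to the ratio of means. The corresponding ratios of means were 15.6 for E4 (bounds from pooled CPM 10.9 and 28.4) and 5.04 for TAM (bounds 3.42 and 8.88). The fitted log2 changes from OVX were 5.54 (SE 0.47) with E2, 3.99 (SE 0.47) with E4 and 2.36 (SE 0.51) with TAM, all as a description.

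The test of Bmp8a was confined to TAM as compared with E2. It was 9.11-fold lower with TAM (log2 fold change -3.19, SE 0.38, adjusted p = 8.1e-06). Bmp8a passed the filter on low counts mainly through E2 (124 to 159 counts per library) and E4 (12 to 60). TAM libraries held 4 to 26 counts. Its call is therefore not weighed as support. Of the 8 ligands, 2 (Bmp8a and Bmp8b) were called lower with TAM than with E2, against 1.39% of all genes. The number called was also 2 with no filter on low counts. With macrophage markers as a covariate the change of Bmp8a was -1.92 with an adjusted p of 0.142. The markers of this list were higher with E2 than with OVX in 6 of 6 genes (adjusted p under 0.05, as for 4.16% of all genes), with a median log2 change of 0.87. With TAM as compared with E2 they were lower in 6 of 6 (6.44% of all genes passed this p in either direction), with a median of -0.97, and with E4 as compared with E2 in 6 of 6 (12.5% of all genes). Their part in the Bmp8a result is poorly separated from that of E2 treatment and was not tested further. Across the 24 libraries, the log2 CPM of Bmp8a and the summed macrophage markers had a Pearson r of 0.65, and of 0.41 once group means were subtracted. For Bmp8b these values were 0.71 and 0.11. The value of 0.41 was not particular to macrophage markers. Within groups, Bmp8a had 0.42 with smooth muscle, 0.41 with fibroblast and 0.41 with endothelial markers, and its lowest value was -0.34 (thyroid and parathyroid).

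The TAM libraries were uneven in Bmp8a. TAM C12 and C13 held 0.111 and 0.0787 CPM, inside the OVX range, while C11, C32, C33 and C35 held 0.361, 0.553, 0.515 and 0.394 CPM, above every OVX library. Fitted within the lower-numbered libraries alone (numbers up to 20), the change from OVX was 1.39, and within the higher-numbered ones (numbers from 24) it was 3.24. The labels do not say whether these number series were batches. E4 libraries were also uneven: C16, C20 and C39 held 1.54, 1.36 and 1.46 CPM, and C19, C36 and C38 held 0.645, 0.739 and 0.486 CPM. For Bmp8b the same E4 libraries did not split in this way, with 6.78 CPM in C20 and 6.69 CPM in C36.

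**Figure D3:**
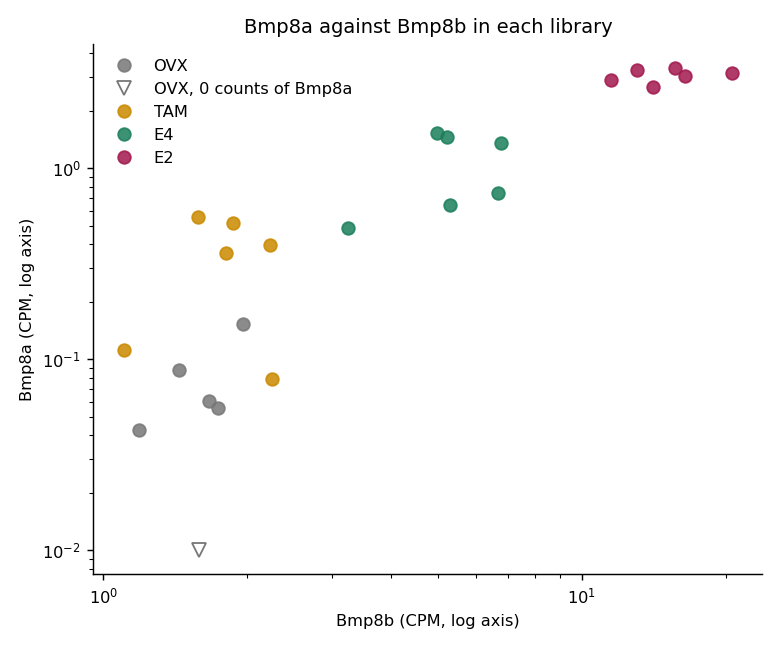
Bmp8a against Bmp8b in CPM, both on log axes, for 24 libraries. The open triangle marks the OVX library with 0 counts of Bmp8a, drawn at an arbitrary position at the bottom. E2 libraries occupy the upper right corner, with Bmp8b at 11.5 CPM or more, and OVX and TAM libraries overlap in Bmp8b while most TAM libraries lie higher in Bmp8a.

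Over 24 libraries, Bmp8a and Bmp8b had a Pearson r of 0.90 on log2 CPM. After the group means were subtracted it was 0.29. Per kb of exon, Bmp8a made up 6.02% ± 3.84 of the pair in OVX, 22.2% ± 11.2 in TAM, 23.3% ± 7.61 in E4 and 24.96% ± 3.60 in E2 (SD, n = 6 each). Bmp8b remained the more abundant of the pair in each library.

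The genes that overlap Bmp8b followed unequal courses. Oxct2b, a testis-type ketone body transferase gene within its intron, was at 0 to 1 counts in OVX, 0 to 8 in TAM, 5 to 28.5 in E4 and 15 to 52 in E2 libraries. Gm17244 had means of 0.0714 CPM in OVX and 1.32 CPM in E2, with 0 to 8 and 47 to 78.5 counts per library. Both genes are given without a test, since passing the filter on low counts rested mainly on the groups where they were high. Their exons also overlap each other on opposite strands, so their counts are not separate. Ppie, a cyclophilin gene with 14.8 ± 1.81 CPM in OVX and 15.0 ± 0.889 in E2, had a log2 change of 0.02 (adjusted p = 0.972). Oxct2a held at most 4 counts outside E2 and 2 to 16 counts in E2, too few to enter the test. It shares 20.5% of its 150-base windows with Oxct2b, so that their separate counts are uncertain.

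The nearest tested genes outside the loci did not take this course. Trit1 and Hpcal4, which flank Bmp8b, had log2 changes of 0.07 (adjusted p = 0.878) and 0.15 (adjusted p = 0.958) with E2 as compared with OVX. Pabpc4 and Macf1, which flank Bmp8a, had 0.11 (adjusted p = 0.759) and -0.24 (adjusted p = 0.165). Hpcal4 varied from 3.47 to 118 CPM among OVX libraries.

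Among the other ligands, Bmp2 (ENSMUSG00000027358, chr2:133552159-133562885) was the only one with an adjusted p under 0.05 in a tested comparison of the edgeR fit of all 24 libraries. Bmp3, Bmp4, Bmp5 and Bmp6 each passed this p under at least 1 alternative. Bmp2 is an osteogenic ligand that is studied in vascular calcification. It measured 2.89, 5.28 and 6.37 CPM in OVX, 4.15, 5.78 and 6.98 CPM in TAM, 4.42, 5.97 and 7.01 CPM in E4, and 5.99, 7.54 and 9.61 CPM in E2 (lowest, median and highest). The E2 group overlapped the upper end of each of the others. With E2 it was 1.495-fold higher than with OVX (log2 fold change 0.58, SE 0.16, adjusted p = 0.0454), where 4.16% of all genes passed this p. Under the alternatives its adjusted p ranged from 0.0142 to 0.69, the highest with macrophage markers as a covariate (log2 fold change 0.18).

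Bmp4 (ENSMUSG00000021835, chr14:46383520-46390669), a ligand of mesoderm and vessel development, was the most abundant of the family per kb. Its exons share 89 bases with Gm15217 on the opposite strand. It measured 32.5, 45.2 and 65.3 CPM in OVX, 35.045, 41.3 and 71.9 CPM in TAM, 24.9, 31.2 and 40.3 CPM in E4, and 27.7, 36.3 and 52.0 CPM in E2. All groups overlapped, and the E4 libraries reached the lowest values. The fitted difference of E4 from OVX was -0.63 (SE 0.19), a description. In the tested comparisons Bmp4 was not called, with adjusted p-values of 0.339 for TAM as compared with E4 (log2 fold change 0.56) and 0.387 for E2 as compared with OVX (-0.36). With macrophage markers as a covariate the latter became -1.19 (adjusted p = 0.0202), and TAM as compared with E2 became 1.22 (adjusted p = 0.0348). The fit separates this covariate poorly from E2 treatment. With it, the SE of E2 as compared with OVX rose from 0.19 to 0.27.

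Bmp6 (ENSMUSG00000039004, chr13:38345107-38500302), the ligand that sets hepcidin expression in the liver, measured 23.4, 36.9 and 52.1 CPM in OVX and 33.6, 39.4 and 80.8 CPM in TAM. In E4 it measured 22.6, 35.4 and 41.9 CPM, and in E2 25.8, 32.3 and 34.9 CPM. The highest TAM value came from library C35, which also held the highest sum of smooth muscle markers. TAM as compared with E2 gave a log2 fold change of 0.56 (SE 0.20, adjusted p = 0.107 in edgeR). Without TAM C35 the log2 fold change was 0.32 (adjusted p = 0.24), and under the alternatives the adjusted p ranged from 0.0406 (ganglion markers as a covariate) to 0.596. Its exons share 224 bases with Txndc5, a gene on the opposite strand with 166865 counts over the 24 libraries, so that reads in these bases cannot be assigned and the level of Bmp6 is uncertain to that extent.

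Bmp3 (ENSMUSG00000029335, chr5:98854415-98884396), a family member that opposes other BMPs at the receptors, measured 18.8, 36.8 and 45.1 CPM in OVX, 32.5, 45.3 and 57.0 CPM in TAM, 34.4, 48.3 and 50.3 CPM in E4, and 23.6, 32.2 and 37.4 CPM in E2. Its E4 and TAM groups lay mostly above the E2 group, with overlap. The log2 fold changes were 0.54 (SE 0.19, adjusted p = 0.059) for E4 as compared with E2 and 0.55 (SE 0.19, adjusted p = 0.0796) for TAM as compared with E2. Neither passed the threshold in this fit, but both passed an adjusted p under 0.05 with DESeq2 (0.032 and 0.0439), with ganglion markers as a covariate (0.0281 and 0.00447) and without OVX C5 and TAM C35 (0.0146 and 0.0135). With white adipocyte markers as a covariate, chosen after seeing the data, the changes were 0.01 and -0.08. Over all alternatives, the adjusted p ran from 0.0146 to 0.98 and from 0.00447 to 0.842.

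Bmp5 (ENSMUSG00000032179, chr9:75775364-75900310), known for skeletal patterning, measured 3.34, 5.95 and 7.44 CPM in OVX, 3.13, 6.71 and 7.31 CPM in TAM, 4.42, 5.09 and 7.69 CPM in E4, and 2.62, 4.22 and 5.09 CPM in E2. TAM as compared with E2 gave a log2 fold change of 0.58 (SE 0.20, adjusted p = 0.0873 in edgeR). The adjusted p was 0.0475 with DESeq2, 0.0113 with the ganglion covariate and 0.00385 without OVX C5 and TAM C35 (log2 fold change 0.72), and ranged from 0.00385 to 0.743 over the alternatives. E2 as compared with OVX gave -0.51 (adjusted p = 0.192), which became -0.63 (adjusted p = 0.00689) with the ganglion covariate, within a range of 0.00689 to 0.756. Its exons share 1878 bases with the antisense gene Gm26903, so that reads in them cannot be assigned. Bmp7 (ENSMUSG00000008999, chr2:172868012-172940321), a ligand required for kidney and eye development, measured 3.88, 5.99 and 7.56 CPM in OVX, 4.58, 6.29 and 9.84 CPM in TAM, 4.78, 7.01 and 11.1 CPM in E4, and 3.92, 5.79 and 6.26 CPM in E2. Its adjusted p-values in tested comparisons lay between 0.241 and 0.939.

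TAM as compared with OVX called 0 of the 7 ligands tested, with edgeR and with DESeq2, where 0.308% of all genes were called. At an unadjusted p under 0.05 there was 1 ligand, Bmp3 (log2 fold change 0.43, SE 0.19, adjusted p = 0.188). The 95% interval of that difference ran from 0.04 to 0.82, and 21% of all genes (5256 of 25033) passed the unadjusted threshold. The difference was 0.72 in the lower-numbered libraries, 0.001 in the higher-numbered ones and 0.01 with the white adipocyte covariate. In TAM as compared with E4, 1 of 7 was called, Bmp8b, and the 95% intervals of Bmp2, Bmp3, Bmp5, Bmp6 and Bmp7 included 0.

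**Figure D4:**
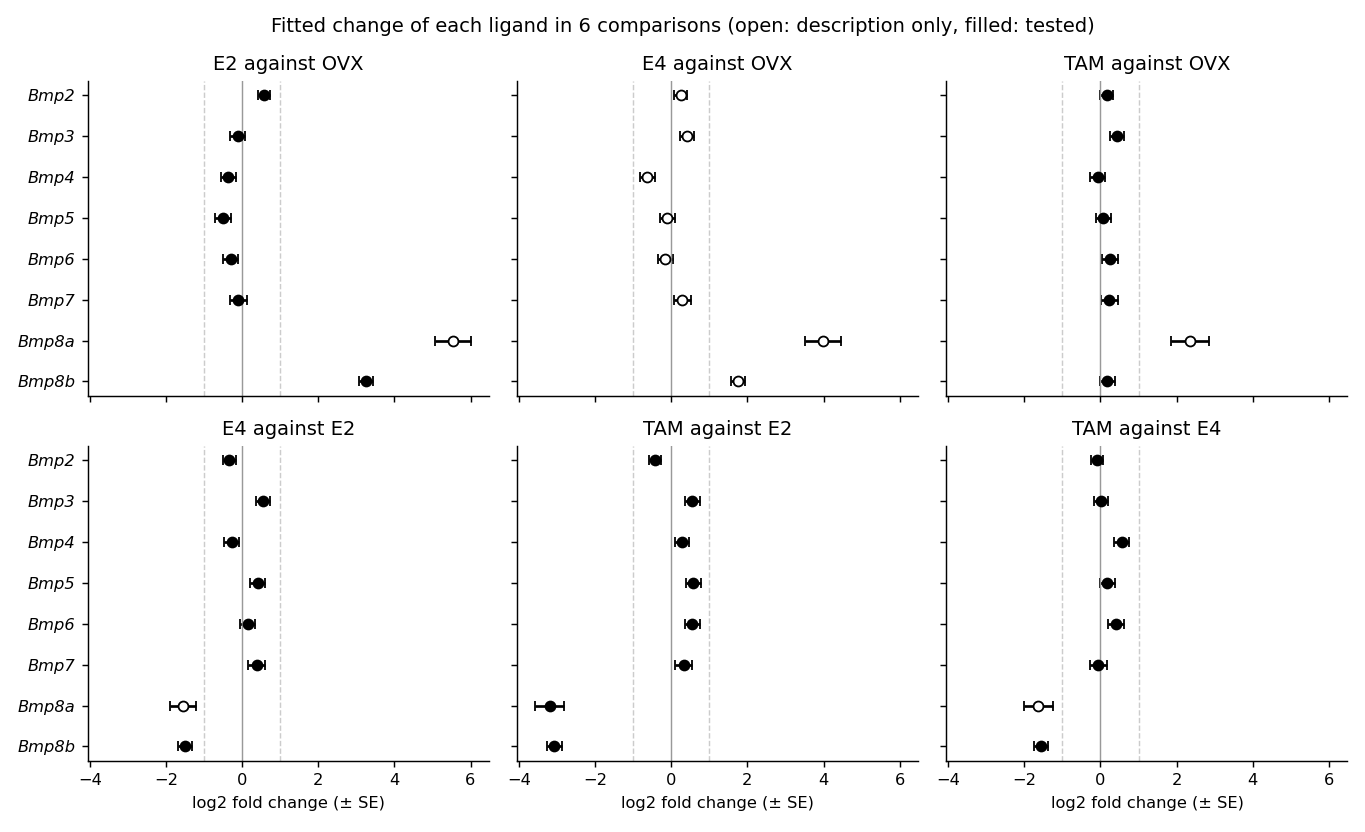
Fitted log2 fold change of each ligand with its SE in 6 comparisons of 6 against 6 libraries, where dashed lines mark a change of 1 and open points are descriptions without a test. Bmp8a and Bmp8b lie beyond 3 in E2 as compared with OVX and below -3 in TAM as compared with E2, while the 6 other ligands stay between the dashed lines in all panels.

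The CPM of Bmp8a and Bmp8b did not overlap between E2 and OVX, between E4 and E2, or between TAM and E2, comparisons in which 2.83%, 6.17% and 4.24% of all genes had non-overlapping groups. The same held between E4 and OVX, where the share of all genes was 9.37%. That is a description only, since the family was proposed with the result of Bmp8a in this comparison known. Between TAM and E4 the Bmp8b groups alone did not overlap, against 0.927% of all genes. Between TAM and OVX there was no such ligand, with 2.58% of all genes.

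To compare levels between genes, CPM was divided by exon length. In OVX, Bmp4 led with 21.8 ± 5.79 CPM per kb, above Bmp6 with 9.83 ± 2.73 and Bmp3 with 4.49 ± 1.39. Bmp7, Bmp5 and Bmp2 followed at 1.45 ± 0.410, 1.43 ± 0.368 and 1.41 ± 0.332 CPM per kb and did not differ beyond their spread. Bmp8b came next with 0.411 ± 0.0673, and Bmp8a was last with 0.0277 ± 0.0213 (SD, n = 6 each).

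The order of Bmp4, Bmp6 and Bmp3 was the same in all 4 groups, whereas Bmp8b moved up. It took rank 7 in OVX and TAM, rank 6 in E4 with 1.38 ± 0.334 CPM per kb, and rank 4 in E2 with 3.92 ± 0.821. In E4, Bmp8b and Bmp5 (1.34 ± 0.290 CPM per kb) did not differ beyond their spread. In E2 its range of 2.96 to 5.31 CPM per kb overlapped that of Bmp3 (3.18 to 5.06) and lay above that of Bmp2 (1.68 to 2.70). Bmp8a, at 1.28 ± 0.104 CPM per kb in E2, overlapped Bmp7 (1.35 ± 0.237) and Bmp5 (1.01 ± 0.220).

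Together, Bmp8a and Bmp8b made up 1.11% ± 0.317 of the summed ligand level per kb in OVX, 1.40% ± 0.323 in TAM, 5.09% ± 1.04 in E4 and 13.6% ± 3.24 in E2. The sum of all 8 ligands was 40.8 ± 7.67 CPM per kb in OVX, 43.9 ± 10.3 in TAM, 35.5 ± 3.99 in E4 and 38.8 ± 3.11 in E2. Differences between these sums were within the spread between libraries.

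Within the groups, several of the other ligands varied with marker lists of more than 1 cell type. After group means were subtracted, log2 CPM of Bmp4 and the fibroblast markers (such as Dcn and Pi16) had a Pearson r of 0.90 over 24 libraries. For Bmp6 and smooth muscle markers (such as Myh11 and Cnn1) it was 0.89, and for Bmp7 and Schwann cell markers (such as Sox10) 0.88. Bmp3 and Bmp5 varied with sympathetic ganglion markers (such as Th and Dbh), with r of 0.74 and 0.76. Other lists came close: Bmp4 and smooth muscle markers had 0.83, Bmp6 and endothelial markers 0.84, Bmp3 and brown adipocyte markers -0.74, and Bmp5 and endothelial markers -0.69. These lists were picked after their values were seen, from 14 lists. The points share library preparation and depth, and the correlations are given without a test.

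**Figure D5:**
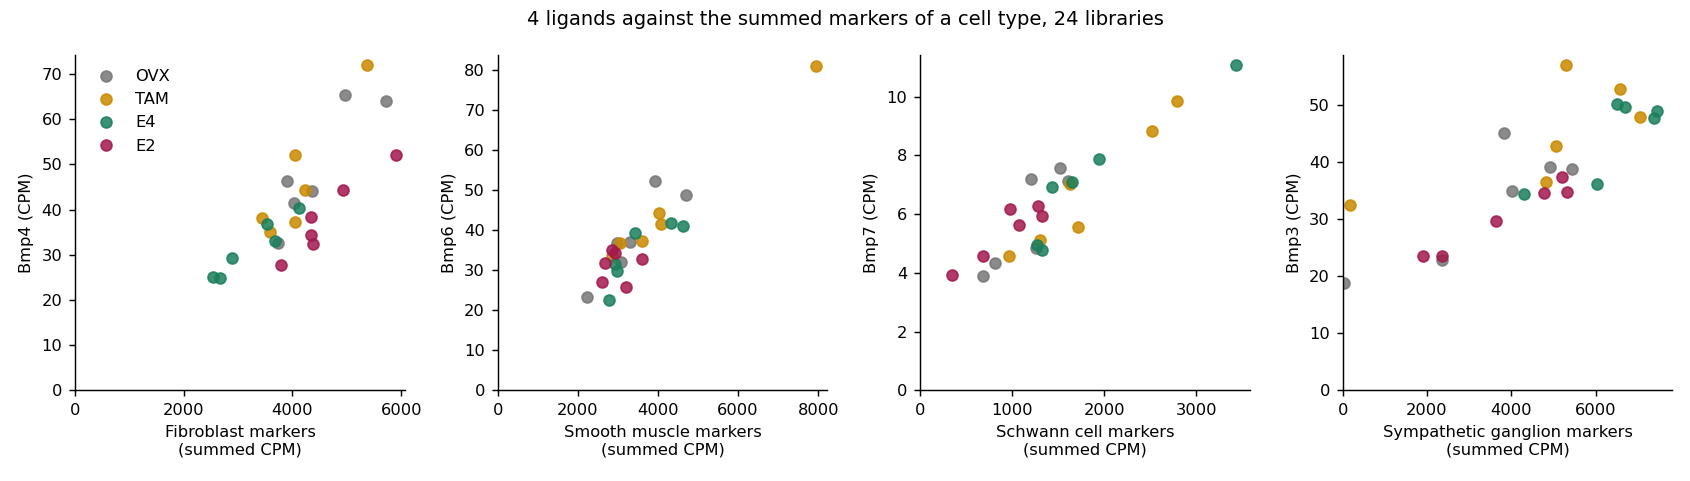
CPM of Bmp4, Bmp6, Bmp7 and Bmp3 against the summed CPM of fibroblast, smooth muscle, Schwann cell and sympathetic ganglion markers (linear axes from 0), where each point is 1 of 24 libraries coloured by group. Bmp6 is highest, at 80.8 CPM, in the library with the highest smooth muscle sum, 7945 CPM, and Bmp7 is highest, at 11.1 CPM, in the library with the highest Schwann cell sum, 3430 CPM.

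The fibroblast markers themselves were lower with E4: 4 of 6 had an adjusted p under 0.05 as compared with OVX, as had 22.0% of all genes, with a list median of -0.61 beside the Bmp4 value of -0.63. In the same comparison, 4 of 6 brown adipocyte markers (median -0.89) and 6 of 6 B cell markers (median -2.05) were lower at this p. The B cell sums were low, at 5.33 to 35.4 CPM in OVX and 3.18 to 7.22 CPM in E4. Schwann cell markers were higher with E4 than with E2 in 3 of 6 genes at an adjusted p under 0.05, where 12.5% of all genes passed in either direction. Their part in the values of Bmp4 and Bmp7 was not tested. For Bmp8a and Bmp8b, the within-group correlations with the 14 lists lay between -0.34 and 0.42 and between -0.54 (thyroid and parathyroid) and 0.39. White adipocyte markers had a median sum of 1808 CPM in OVX, 1728 in TAM, 2150 in E4 and 2925 in E2, with overlapping groups. Their r over 24 libraries was 0.65 with Bmp8a and 0.64 with Bmp8b, and 0.19 and -0.22 once group means were subtracted. With this list as a covariate, Bmp8b was 3.27 higher in E2 than in OVX (adjusted p = 6.38e-10), and Bmp8a in TAM as compared with E2 gave -2.74 (adjusted p = 0.00442). Cartilage markers had an r over 24 libraries of -0.75 with Bmp8a and -0.73 with Bmp8b, and of 0.20 and 0.29 once group means were subtracted, and their part in the Bmp8 values was not tested. Their sums were 20.2 to 27.3 CPM in OVX, 16.3 to 25.4 in TAM, 12.2 to 18.9 in E4 and 10.9 to 16.2 in E2. Brown adipocyte markers summed to 934.6 to 2415 CPM in OVX, 796 to 1251 in TAM, 635 to 1050 in E4 and 824 to 1903 in E2, ranges that overlap.

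Genes with the course most like Bmp8a were sought among 19509 genes with a mean of at least 1 CPM, by Pearson r of log2 CPM over 24 libraries. Among the closest were Spon1 (0.95), Gas6 (0.93), Stc1 (0.91) and Plod2 (0.91). After group means were subtracted, other genes led, Gm5121 (0.76), Sirt4 (0.72), Ccr1 (0.68), Ranbp3 (0.67) and Wdr61 (0.66). For Bmp8b the list was Akr1cl (0.94), Gm12248 (0.93) and Mup15 (0.93). Bmp4 was closest to Mfap5 (0.96), a microfibril gene, Bmp6 to Tpm2 (0.91), a contractile tropomyosin, Bmp7 to Bcas1 (0.94), a gene of myelinating glia, and Bmp3 to Bace1 (0.96). Bmp2 was closest to Arhgap10 (0.82), and Bmp5 to Gm26903 (0.88), with which it shares exon bases.

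The rest of the pathway was followed with 70 listed genes, of which 69 were in the tables and 63 were tested. With E2 as compared with OVX, 3 of the 63 (4.76%) were called, all higher, among them Nog and Gdf6, beside 1.27% of all genes (0.923% higher). With E4 as compared with OVX, which shares the OVX libraries, 4 were called, all higher, among them Nog, Gdf6 and Gdf1. The 4 make up 6.35% of the list beside 2.51% of all genes. In TAM as compared with E2, 2 (3.17%) were called, both lower, among them Nog, beside 1.65% of all genes (1.39% lower). No listed gene was called by edgeR in TAM as compared with OVX, E4 as compared with E2 or TAM as compared with E4, where 12, 22 and 12 of the 63 had an unadjusted p below 0.05, as had 21%, 30.2% and 9.12% of all genes.

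Of the antagonists, Nog (noggin, which covers the receptor sites of the ligands) had lowest, median and highest values of 0.0879, 0.397 and 0.637 CPM in OVX, 0.255, 0.377 and 0.620 CPM in TAM, 0.416, 0.907 and 1.78 CPM in E4, and 0.709, 1.45 and 2.08 CPM in E2. The E2 group lay above OVX and TAM, and the E4 group overlapped both. From OVX, the log2 fold change was 1.92 with E2 (SE 0.35, adjusted p = 0.00142), 1.33 with E4 (SE 0.36, adjusted p = 0.0123) and 0.11 with TAM (adjusted p = 0.9). With an adjusted p under 0.05 alone, E4 as compared with OVX gave, beside the antagonists called, 3 higher and 4 lower ones of the 16 tested, where 22.0% of all genes passed this p. The lowest adjusted p among these was that of Bambi, a decoy receptor (-0.76, adjusted p = 0.000532), which lies outside the naming rule and was chosen after its value was seen.

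Of 9 other BMP and GDF ligands tested, Gdf6 and Gdf1 were called. Gdf6, a ligand of joint and eye development, measured 0.375, 1.14 and 1.41 CPM in OVX, 1.34, 1.69 and 2.38 CPM in TAM, 1.48, 2.60 and 3.63 CPM in E4, and 2.22, 2.83 and 3.35 CPM in E2. Both estrogen groups lay above OVX. The change from OVX was 1.41 with E2 (SE 0.24, adjusted p = 0.000656), 1.22 with E4 (SE 0.24, adjusted p = 0.002) and 0.74 with TAM (SE 0.24, adjusted p = 0.0895). Gdf1, a ligand of left-right patterning, changed by 1.08 with E4 (SE 0.25, adjusted p = 0.00553), and its exons overlap those of another gene, so that its reads are uncertain.

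None of the 4 type I receptors, 3 type II receptors, 5 co-receptors, 7 proteases, 8 SMAD genes or 15 target genes tested was called in any comparison by edgeR. At an unadjusted p under 0.05, the target genes numbered 6 with E2 as compared with OVX, 10 with E4 as compared with E2 and 8 with TAM as compared with E2, out of 15 each, beside 16%, 30.2% and 21.2% of all genes. At an adjusted p under 0.05, 3 targets were higher and 2 lower with E4 than with E2 (12.5% of all genes passed this p), and 3 were higher and 0 lower with TAM than with E2 (6.44% of all genes). Bmpr2, the main type II receptor of vessels, had log2 changes from OVX of 0.07 with E2 (adjusted p = 0.917), 0.18 with E4 (adjusted p = 0.401) and 0.12 with TAM (adjusted p = 0.69). Acvrl1, the endothelial type I receptor, had -0.12, -0.20 and 0.11, and the co-receptor Eng had 0.13, 0.12 and 0.35, all with adjusted p-values between 0.223 and 0.826.

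The target genes Id1 and Id3, transcriptional regulators induced by SMAD signaling, had their lowest group medians in E2, with overlap between groups. Id1 measured 19.7, 42.6 and 64.6 CPM in OVX, 32.97, 41.1 and 62.5 CPM in TAM, 26.7, 46.3 and 56.8 CPM in E4, and 23.3, 25.9 and 32.9 CPM in E2. It was higher with E4 than with E2 by 0.73 on the log2 scale (SE 0.22, adjusted p = 0.0362), and the difference of E2 from OVX was -0.69 (adjusted p = 0.0874). Id3 had medians of 123 CPM in OVX, 119 in TAM, 125 in E4 and 89.3 in E2 and differed by 0.37 between E4 and E2 (adjusted p = 0.084), and Smad6, an inhibitory SMAD, by -0.61 between E2 and OVX (SE 0.20, adjusted p = 0.0844). Over the 15 targets tested, the median change was -0.30 with E2 and -0.14 with E4 as compared with OVX, and 0.35 with E4 as compared with E2, beside medians of all genes within 0.015 of 0.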

How the data were processed

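Per the labels, libraries were made with a stranded mRNA kit and sequenced as paired reads, and the submitters' processing notes name bcl2fastq 2.17, Trim Galore, Bowtie2 and featureCounts with mm10/GRCm38. The authors deposited estimated counts per Ensembl gene, 1 table per library, without normalization. Between 8.87% and 9.80% of values per library carried decimals and were rounded. Strand and fraction settings are not given in the sources used here. Names and coordinates came from GENCODE M21, which named 55240 of 55421 genes, and promoters from RefSeq, with entries for 5 ligands (Bmp2, Bmp3 and Bmp7 had none).

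Counts were fitted in R 4.3.3 with edgeR 4.0.16 (quasi-likelihood, TMM, default low-count filter) on all 24 libraries in the 4 title groups without covariates, leaving 20 residual degrees of freedom. Calls required a Benjamini-Hochberg adjusted p under 0.05 over 25033 genes and an absolute log2 fold change over 1, the study's thresholds. Standard errors derive from the F statistic, and CPM uses TMM-scaled totals. Poisson intervals are exact at 95% and, with the floor of 3 counts, cover counting error only, since reads carried no molecular identifiers. The fit was tested on simulated data. No 2 libraries held identical values. Alternatives were DESeq2 1.42.0, other scaling and filters, subsets of libraries, number series and marker covariates. Scripts ran in Python 3.11.15 with scipy 1.17.1 and Biopython 1.88.

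Named genes were all 8 ligands, pathway genes called in any comparison, Bmpr2, Acvrl1, Eng, Id1, Id3 and Smad6, overlapping and neighbouring genes, and the genes closest by correlation (5 for Bmp8a, the first or first 3 of 3 for the others). The members and lists were chosen with earlier results of these data known. A gene that these rules would name is not reported here, and it remains in the counts of genes and list sums.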

Additional observations from a re-analysis of the deposited data

Results flagged for a closer look

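A single library stood far from the other 5 of its group in 2 of 32 groups of ligand values, by Dixon's 95% criterion for 6 samples, and chance gives about 1.6. Bmp6 was at 80.8 CPM in TAM C35, against 33.6 to 44.2 CPM in the other TAM libraries (gap of 0.775 of the range). The same library held 183 CPM of sympathetic ganglion and 7945 CPM of smooth muscle markers, against TAM medians of 5184 and 3818, and their part in the value was not tested. Bmp5 was at 7.69 CPM in E4 C16, against 4.42 to 5.17 CPM in the others (gap of 0.770). Changes of 7 ligands (not Bmp8a) from OVX with E2 and with TAM were also compared between the lower- and higher-numbered libraries. Of 14 such tests, 0 passed an adjusted p under 0.05 in edgeR and 2 had an unadjusted p under 0.05, Bmp3 and Bmp4 with TAM, with a lowest adjusted p of 0.459.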

How the results depend on the processing

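No paired analysis was possible because the numbers in the library titles are not shared between groups. Leaving out each library in turn kept 1 ligand called in E2 as compared with OVX (1 to 1), 0 in TAM as compared with OVX (0 to 0), 1 in E4 as compared with E2 (1 to 1), 2 in TAM as compared with E2 (2 to 2) and 1 in TAM as compared with E4 (1 to 1). The count in E2 as compared with OVX was 2 without a fold threshold (Bmp8b and Bmp2) and 2 with the macrophage covariate (Bmp8b and Bmp4). In E4 as compared with E2 it was 0 with that covariate and 0 in the higher-numbered libraries alone. In TAM as compared with E4 it was 0 in the lower-numbered and 0 in the higher-numbered libraries alone, where Bmp8b gave -1.73 (adjusted p = 0.138) and -1.42 (adjusted p = 0.173). Both splits fit fewer libraries. The macrophage covariate is poorly separated from E2 treatment, and the cause of the changes with the covariates was not tested.

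Bmp8b kept its direction in all comparisons and alternatives run. In results with a test, 1268 values under alternatives kept their direction and whether they were called (adjusted p under 0.05 with an absolute log2 fold change over 1), 5 lost the call, 2 gained it and 35 changed sign, none of these 35 a called value. Values under the fold threshold, such as those of Bmp2, Bmp3 and Bmp5, could cross the adjusted p alone without counting here. With the macrophage covariate, Bmp2 was 0.11 in E4 and 0.022 in TAM as compared with E2, Bmp3 0.67 in E2 as compared with OVX, -0.33 in E4 and -0.32 in TAM as compared with E2, and Bmp4 0.026 in TAM as compared with OVX and 0.66 in E4 as compared with E2. With the white adipocyte covariate, Bmp3 was 0.091 in E2 as compared with OVX, -0.079 in TAM as compared with E2 and -0.091 in TAM as compared with E4, Bmp7 was 0.0041 in TAM as compared with E4, and Bmp4 and Bmp5 were 0.13 and -0.093 in TAM as compared with OVX. Both covariates were chosen after seeing the data. With the ganglion covariate, Bmp4 and Bmp5 were 0.012 and -0.075 in TAM as compared with OVX.

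In the lower-numbered libraries alone, Bmp3 was -0.044 and Bmp7 0.064 in TAM as compared with E4, Bmp4 -0.23 in TAM as compared with E2, and Bmp6 -0.14 in TAM as compared with OVX. In the higher-numbered alone, Bmp2 was 0.0053 in TAM as compared with E4, Bmp4 0.40 and Bmp5 -0.32 in TAM as compared with OVX, Bmp4 0.040 in E4 as compared with E2, and Bmp7 0.011 in E2 as compared with OVX. Leaving out single libraries, TAM as compared with E4 ran from -0.066 to 0.083 for Bmp3 and from -0.20 to 0.11 for Bmp7, and TAM as compared with OVX from -0.23 to 0.026 for Bmp4 and from -0.033 to 0.22 for Bmp5. Among descriptions, Bmp8a moved in TAM as compared with E4 from -1.64 to -2.63 and -0.91 in the number series, in E2 as compared with OVX to 4.43 and in E4 as compared with E2 to -0.35 with the macrophage covariate, and Bmp3 in E4 as compared with OVX to -0.066 in the higher-numbered libraries.

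Depth limits Bmp8a in OVX, where 3 counts correspond to 0.0453 to 0.0766 CPM. The labels do not name batches, the dose of TAM or the strand setting, and bulk tissue holds nerve, fat and, in single libraries, gland tissue.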
